A study of Mus musculus with 15 samples.

Results

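The T cell and regulatory T cell genes of the mouse lung were followed through bleomycin injury. The 10 genes were taken by symbol from the raw count table of 33340 genes: Cd3d, Cd3e and Cd3g of the T cell receptor complex, the coreceptor genes Cd4, Cd8a and Cd8b1, and the regulatory and checkpoint genes Foxp3, Ctla4, Icos and Pdcd1. Polyadenylated RNA of whole lungs was sequenced from C57BL/6 male mice aged 10 to 12 weeks that carried no engineered allele according to the labels. Bleomycin, a drug that breaks DNA and scars the lung, was given once into the trachea at 5 U/kg, and lungs were taken at day 0 (4 libraries, titled as controls), day 7 (4), day 14 (4) and day 21 (3). The titles give these group sizes, while the design text of the series gives 3 replicates a day. The study calls the libraries biological replicates without saying that each was a separate mouse, so p-values measure the spread between these libraries. The labels of day 0 replicate 4 conflict, since the title calls it a control and the treatment field gives bleomycin. The title was followed, and the calls were also made without this library.

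Total counts were 15652008 to 18020661 per library. All 10 genes had counts in all 15 libraries and passed the filter on low counts, at 4 to 252 counts per library. They make up a small share of whole-lung RNA, with a summed level of 13.4 to 71.3 CPM, the count scaled by TMM to a common library size. Levels at or near the smallest counts carry a wide counting error: the 5 Foxp3 counts of day 0 replicate 3 have an exact 95% Poisson interval of 1.62 to 11.7, and the 4 Pdcd1 counts of day 0 replicate 1 one of 1.09 to 10.2, which cover counting error only. The share of counts from mitochondrial genes, which differed between libraries of a day, was 2.28% to 4.22% at day 0, 2.03% to 2.15% at day 7, 2.1% to 4.14% at day 14 and 2.66% to 4.01% at day 21. Its part in the results was not tested beyond the fits given beside them, which put the share in the model or stayed within a set of libraries.

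T cells recognise antigen through a receptor that signals by the CD3 chains. CD4 marks helper and regulatory T cells and CD8, a pair of alpha and beta chains, marks cytotoxic T cells. FOXP3 is the transcription factor that defines regulatory T cells, which hold back other T cells, in part through CTLA-4, a receptor that takes up the ligands CD80 and CD86. ICOS is a costimulatory receptor that activated T cells put on their surface, and PD-1, the product of Pdcd1, is an inhibitory receptor of T cells after antigen contact. Some dendritic cells also make Cd4 or Cd8a. In bulk tissue, fewer cells of a type and less RNA per cell cannot be told apart.

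Several of these genes lie side by side in the genome (mm10, GENCODE M21). Cd3g (chr9:44969572-44980431, minus strand) and Cd3d (chr9:44981786-44987339, plus strand) point away from each other with 1354 bases between them, and Cd3e (chr9:44998740-45009627, minus strand) follows 11400 bases beyond Cd3d. Cd8b1 (chr6:71322788-71337494) and Cd8a (chr6:71373427-71379173) share the plus strand of chromosome 6 with 35932 bases between them, while Cd4 lies elsewhere on it (chr6:124864692-124888221, minus strand). Ctla4 (chr1:60887000-60915832) and Icos (chr1:60977927-61000320) are neighbours on the plus strand of chromosome 1 with 62094 bases between them, and Pdcd1 (chr1:94038305-94052553) is on its minus strand. Foxp3 (chrX:7573644-7595245, plus strand) shares 266 exon bases with Ppp1r3f and 590 with Ccdc22 on the opposite strand and 853 with Flicr on the same strand. Since the strand setting of the counting was not stated, the Foxp3 counts carry that uncertainty. Cd3e shares 135 exon bases with an antisense gene that had at most 5 counts in a library.

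The 250 bases upstream of the transcription start are shown for the 3 CD3 genes, which varied together between libraries, for Foxp3, at the later of its 2 annotated starts, and for Pdcd1, which was higher than at day 0 at all 3 later days. The sequences are from RefSeq on GRCm38.p6, written 5′ to 3′ on the strand of the gene. Capitals mark the Ets core AGGAAG and the E-box CAGNTG, searched on both strands (as CTTCCT and CANCTG on the other strand), which bind Ets factors and E proteins of the lymphocyte lineage.
Cd3g, chr9:44980432-44980681, minus strand: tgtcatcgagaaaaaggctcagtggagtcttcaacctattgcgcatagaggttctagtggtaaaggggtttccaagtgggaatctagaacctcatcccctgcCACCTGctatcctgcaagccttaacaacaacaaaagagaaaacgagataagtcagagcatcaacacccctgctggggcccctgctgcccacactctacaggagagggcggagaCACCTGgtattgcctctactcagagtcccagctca
Cd3d, chr9:44981536-44981785, plus strand: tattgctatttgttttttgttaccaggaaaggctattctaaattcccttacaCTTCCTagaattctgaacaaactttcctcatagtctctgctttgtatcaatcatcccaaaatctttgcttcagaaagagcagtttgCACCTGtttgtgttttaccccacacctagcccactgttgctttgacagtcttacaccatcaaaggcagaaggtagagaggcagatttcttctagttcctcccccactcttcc
Cd3e, chr9:45009612-45009861, minus strand: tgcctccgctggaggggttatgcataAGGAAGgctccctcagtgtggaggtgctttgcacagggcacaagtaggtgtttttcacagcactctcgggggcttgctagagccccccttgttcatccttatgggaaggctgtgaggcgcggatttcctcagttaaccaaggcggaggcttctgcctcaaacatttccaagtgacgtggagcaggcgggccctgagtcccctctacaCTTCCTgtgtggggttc
Foxp3, chrX:7580233-7580482, plus strand: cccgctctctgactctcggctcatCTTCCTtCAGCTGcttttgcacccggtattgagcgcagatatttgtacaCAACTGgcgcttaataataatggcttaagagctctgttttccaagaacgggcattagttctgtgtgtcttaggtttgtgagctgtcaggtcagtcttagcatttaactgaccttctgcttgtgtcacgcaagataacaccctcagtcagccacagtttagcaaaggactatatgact
Pdcd1, chr1:94052554-94052803, minus strand: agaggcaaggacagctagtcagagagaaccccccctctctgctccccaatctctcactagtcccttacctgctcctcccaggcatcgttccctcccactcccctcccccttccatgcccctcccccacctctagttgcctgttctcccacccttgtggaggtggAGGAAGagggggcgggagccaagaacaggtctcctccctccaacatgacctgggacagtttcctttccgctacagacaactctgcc

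Of 8 promoters found for 7 of the 10 genes, 5 held the Ets core, which is in 29.5% of 32851 mouse promoters of this length, and 5 held the E-box, which is in 44.8%. Cd3d and Ctla4 had both, and so did the Foxp3 promoter printed here. The Runx core TGTGGT was in 0 of 8 and in 14% of all promoters, and TATAAA in 1 of 8 and in 12.4%. No capitals of an Ets core and an E-box overlap. These matches describe letters in the window and were not set against the expression data.

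The order of the levels was compared per kilobase of exon, as CPM per kb, which allows for gene length. At day 0 Cd3d was highest at 2.61 ± 0.875 CPM per kb (SD, n = 4), followed by Cd8b1 at 2.36 ± 0.856, Cd3g at 1.91 ± 0.463, Cd4 at 1.69 ± 0.252, Cd8a at 1.49 ± 0.471 and Cd3e at 1.19 ± 0.265. The regulatory and checkpoint genes came last, with Icos at 0.754 ± 0.0753, Ctla4 at 0.683 ± 0.139, Pdcd1 at 0.325 ± 0.139 and Foxp3 at 0.137 ± 0.10 CPM per kb. The ranges of mean ± SD overlapped between neighbours in this order except for Cd3e and Icos and for Ctla4 and Pdcd1. At day 14 the order of the means was another. Cd4 at 1.57 ± 0.446 and Cd3d at 1.56 ± 0.476 CPM per kb (n = 4) were nearly level at the top. Ctla4 at 1.35 ± 0.290 and Pdcd1 at 1.08 ± 0.334 stood above Cd8b1 at 0.821 ± 0.345 and Cd8a at 0.644 ± 0.298. Foxp3 was still lowest at 0.447 ± 0.180. At day 14 the ranges of mean ± SD overlapped between all neighbours.

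Libraries of the same day differed widely, and the 10 genes varied together between them. Day 7 replicate 3 was the highest day 7 library for 9 of 10 genes and replicate 2 the lowest for 9. At day 21, replicate 2 was the lowest library for all 10 and replicate 3 the highest for 8. At day 14, replicate 3 was highest for 7 and replicate 2 lowest for 6. The summed level of the 10 genes ran from 25.2 to 71.3 CPM at day 7 and from 13.4 to 42.4 CPM at day 21. After each gene's day mean was taken off, all 45 pairs of genes correlated above 0 over the 15 libraries, with a median Pearson r of 0.71. The highest was Cd3g with Cd8b1 at 0.95 and the lowest Cd8a with Ctla4 at 0.27. Pairs among the CD3 and coreceptor genes had a median of 0.84, pairs among the regulatory and checkpoint genes 0.69, and pairs across the 2 sets 0.61. These values are a description, since the genes share libraries and scaling factors.

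**Figure D1:**
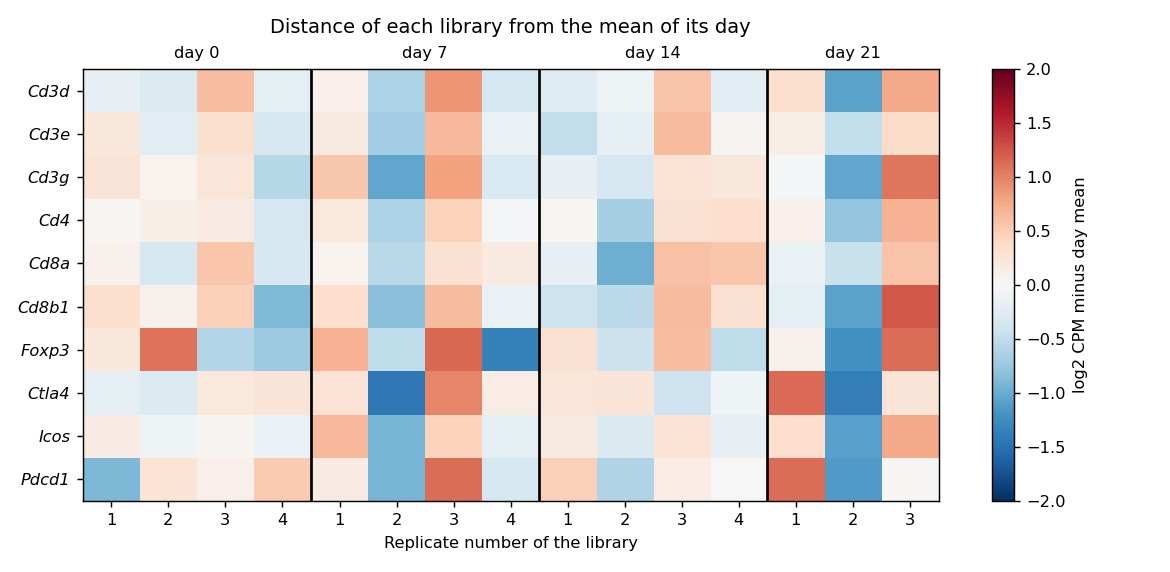
Distance of each library from the mean of its day, as log2 CPM minus the day mean, for the 10 genes (rows) in the 15 libraries (columns, by day and replicate number). Red is above and blue below the mean; day 21 replicate 2 is below it for all 10 genes, and day 7 replicate 3 is above it for all 10.

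The first comparison asked which of these genes differed from day 0 at each later day. A gene was called changed in edgeR's quasi-likelihood test on 17457 genes when it passed 1.5-fold and an adjusted p (Benjamini-Hochberg) of 0.05. So taken, 1 of 10 members changed at day 7 (Pdcd1, higher), where 16.1% of all genes tested changed and 8.78% were higher. At day 14, 3 of 10 changed against 23.1% of all genes: Pdcd1 was higher, as 12% of all genes were, and Cd8a and Cd8b1 were lower, as 11.2% were. At day 21, 1 of 10 changed (Pdcd1, higher) against 22.5% of all genes, 12.4% of them in that direction. These shares are near or below the background. The median log2 fold change of the 10 genes was 0.48 at day 7, -0.40 at day 14 and -0.51 at day 21, where the median of all genes was 0.01, 0.016 and 0.024. All 3 comparisons share the day 0 libraries. Without day 0 replicate 4, whose labels conflict, the log2 fold change of Pdcd1 was 2.21, 1.91 and 2.22 at days 7, 14 and 21 (edgeR adjusted p 0.0297, 0.0371 and 0.0233), and at day 14 that of Cd8a was -1.33 (0.0181) and that of Cd8b1 -1.76 (0.0178). All 5 calls stood, and Cd3e was also called at day 14 (-0.98, adjusted p 0.0475).

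**Figure D2:**
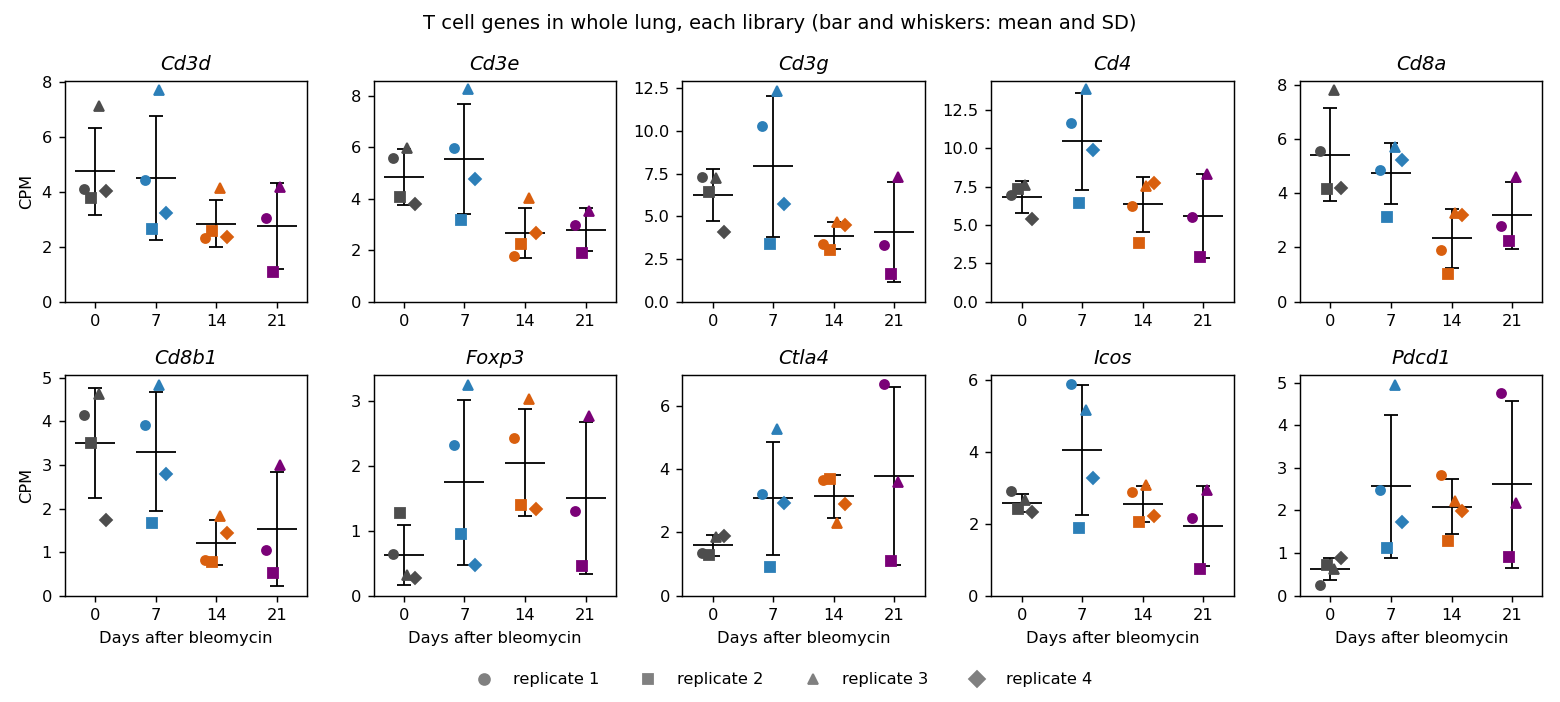
CPM of each of the 10 genes (panels) in every library against days after bleomycin; point shapes give the replicate number, and the bar and whiskers the mean and SD of the day. Pdcd1 lies above the day 0 libraries in every later library, while Cd8a at day 14 lies below all of them.

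**Figure D3:**
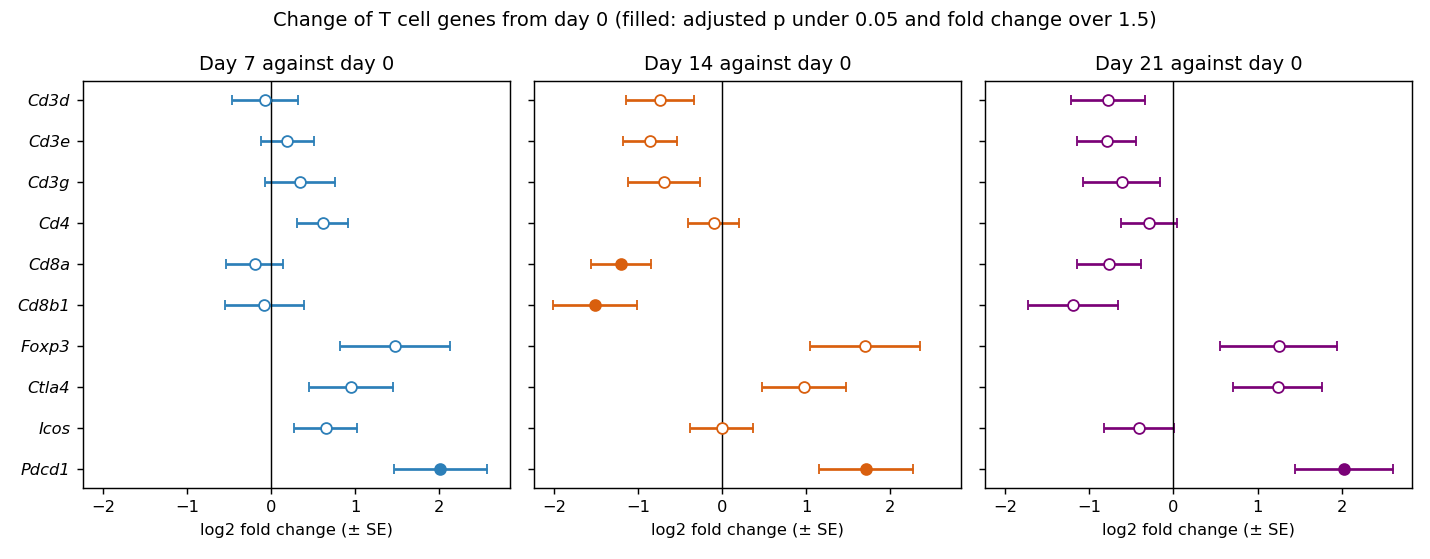
log2 fold change from day 0 with its standard error for the 10 genes at days 7, 14 and 21 in edgeR's fit; filled points passed both thresholds. These are Pdcd1 at all 3 days, and Cd8a and Cd8b1 at day 14.

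The CD3 genes, which couple the antigen receptor to signalling, passed the thresholds at no day. Cd3e (ENSMUSG00000032093) was at 5.57, 4.05, 5.97 and 3.79 CPM at day 0, at 5.95, 3.18, 8.24 and 4.76 CPM at day 7, at 1.77, 2.23, 4.01 and 2.66 CPM at day 14 and at 2.97, 1.88 and 3.53 CPM at day 21. The day 7 libraries spread to both sides of day 0, 3 of 4 day 14 libraries lay below every day 0 library, and all 3 day 21 libraries did, as in 16% of all genes. The log2 fold change was 0.19 at day 7 (SE 0.31, edgeR adjusted p 0.686), -0.86 at day 14 (SE 0.32, adjusted p 0.0514) and -0.79 at day 21 (SE 0.35, adjusted p 0.101). The day 14 value passed the threshold in 9 of 20 alternatives, over which its adjusted p ranged from 0.0118 to 0.384. Under DESeq2 it was 0.0243.

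Cd3d (ENSMUSG00000032094) was at 3.75 to 7.11 CPM at day 0, 2.62 to 7.69 CPM at day 7, 2.30 to 4.12 CPM at day 14 and 1.08 to 4.18 CPM at day 21, and Cd3g (ENSMUSG00000002033) at 4.07 to 7.31, 3.35 to 12.4, 3.0 to 4.63 and 1.60 to 7.29 CPM. The groups overlapped at every day for both genes. At day 14 Cd3d had a log2 fold change of -0.74 (SE 0.40, edgeR adjusted p 0.172) and Cd3g one of -0.69 (SE 0.42, adjusted p 0.229), and at day 21 it was -0.78 (SE 0.44, adjusted p 0.200) and -0.62 (SE 0.46, adjusted p 0.341). At day 7 the values were -0.08 and 0.34, each smaller than its SE. Of the 3 CD3 genes, 0 had an unadjusted p under 0.05 at day 7, 1 at day 14 and 1 at day 21. DESeq2 called 1 of the CD3 genes at day 14, Cd3e, where it called 24.3% of all genes, and 0 at days 7 and 21. limma voom called 0 of them at all 3 days.

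The CD8 genes were the members that fell. Cd8a (ENSMUSG00000053977), the alpha chain, was at 5.57, 4.17, 7.81 and 4.18 CPM at day 0 and at 1.89, 1.02, 3.26 and 3.20 CPM at day 14. Every day 14 library lay below every day 0 library, as in 14.4% of all genes. The log2 fold change was -1.21 (SE 0.35, edgeR adjusted p 0.0165), and -1.23 with the mitochondrial share in the model (adjusted p 0.0162). The call was lost without day 0 replicate 3 (log2 fold change -0.999, adjusted p 0.0506). At day 7 Cd8a was at 3.13 to 5.71 CPM and at day 21 at 2.22 to 4.59 CPM, both overlapping day 0, with log2 fold changes of -0.20 (SE 0.34, adjusted p 0.709) and -0.76 (SE 0.38, adjusted p 0.146).

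Cd8b1 (ENSMUSG00000053044), the beta chain, was at 4.14, 3.51, 4.64 and 1.73 CPM at day 0 and at 0.827, 0.765, 1.83 and 1.45 CPM at day 14. Day 14 replicate 3 was above day 0 replicate 4, so the groups overlapped. The log2 fold change was -1.51 (SE 0.50, edgeR adjusted p 0.0286), and -1.48 with the mitochondrial share in the model (adjusted p 0.0389). It lost its call without day 0 replicate 1 (-1.45, adjusted p 0.0577), day 0 replicate 3 (-1.37, 0.0652), day 14 replicate 1 (-1.38, 0.0703) or day 14 replicate 2 (-1.37, 0.0763). At day 21 Cd8b1 was at 1.05, 0.513 and 3.0 CPM, with a log2 fold change of -1.20 (SE 0.54, adjusted p 0.105) that was -2.20 (adjusted p 0.0115) without replicate 3. At day 7 its log2 fold change was -0.08 (SE 0.47, adjusted p 0.917). Among the libraries with a mitochondrial share over 3.5%, 3 of day 14 and 2 of day 0, the day 14 values were -1.27 for Cd8a (adjusted p 0.110) and -1.24 for Cd8b1 (adjusted p 0.145).

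Cd4 (ENSMUSG00000023274), the coreceptor of helper and regulatory T cells, passed the thresholds at no day. It was at 6.93, 7.38, 7.62 and 5.36 CPM at day 0, 11.7, 6.42, 13.8 and 9.87 CPM at day 7, 6.26, 3.83, 7.55 and 7.73 CPM at day 14 and 5.5, 2.91 and 8.35 CPM at day 21. At day 7, 3 of 4 libraries lay above every day 0 library. The log2 fold changes were 0.62 (SE 0.30, edgeR adjusted p 0.149), -0.10 (SE 0.31, adjusted p 0.828) and -0.29 (SE 0.33, adjusted p 0.557).

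Foxp3 (ENSMUSG00000039521) did not pass the thresholds at any day. Its level was 0.647, 1.27, 0.317 and 0.279 CPM at day 0, on 5 to 21 counts, and 2.42, 1.40, 3.03 and 1.33 CPM at day 14. All 4 day 14 libraries lay above all 4 day 0 libraries, as in 16.8% of all genes, the nearest pair being 1.33 and 1.27 CPM. The log2 fold change was 1.70 (SE 0.65, edgeR adjusted p 0.0563). Its adjusted p was under 0.05 in 7 of 20 alternatives, among them DESeq2 (0.0281), the mitochondrial share in the model (log2 fold change 1.97, 0.0300), the libraries over 3.5% alone (2.65, 0.0204) and the fit without day 0 replicate 2 (2.28, 0.0287), and over all 20 it ranged from 0.0204 to 0.200. At day 7 Foxp3 was at 2.32, 0.949, 3.24 and 0.476 CPM, 2 libraries within the day 0 range and 2 above it, with a log2 fold change of 1.47 (SE 0.65, adjusted p 0.109). At day 21 it was at 1.30, 0.456 and 2.77 CPM, with a log2 fold change of 1.25 (SE 0.70, adjusted p 0.192) that was 0.43 without replicate 3 (adjusted p 0.729).

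Ctla4 (ENSMUSG00000026011) was at 1.36, 1.27, 1.84 and 1.90 CPM at day 0, 3.23, 0.893, 5.27 and 2.91 CPM at day 7, 3.66, 3.70, 2.29 and 2.90 CPM at day 14 and 6.68, 1.08 and 3.59 CPM at day 21. All day 14 libraries lay above all day 0 libraries, as in 16.8% of all genes, while at days 7 and 21 replicate 2 lay below them and the others above. The log2 fold change was 0.95 at day 7 (SE 0.50, edgeR adjusted p 0.175), 0.97 at day 14 (SE 0.50, adjusted p 0.148) and 1.24 at day 21 (SE 0.53, adjusted p 0.0887). Without day 21 replicate 2 the last became 1.64 (adjusted p 0.0189).

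Icos (ENSMUSG00000026009) had the narrowest spread at day 0, 2.34 to 2.91 CPM. It was at 5.89, 1.90, 5.16 and 3.27 CPM at day 7, 2.04 to 3.09 CPM at day 14 and 0.741 to 2.94 CPM at day 21, overlapping day 0 each time. The log2 fold changes were 0.65 (SE 0.37, edgeR adjusted p 0.215), -0.01 (SE 0.38, adjusted p 0.988) and -0.41 (SE 0.42, adjusted p 0.497). Taking the 4 regulatory and checkpoint genes together, the median was 1.21, 1.34 and 1.25 on the log2 scale at days 7, 14 and 21, against 0.19, -0.74 and -0.78 for the CD3 genes and -0.08, -1.21 and -0.76 for the coreceptors.

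Pdcd1 (ENSMUSG00000026285) rose at all 3 days. It was at 0.259, 0.726, 0.635 and 0.893 CPM at day 0, on 4 to 16 counts, and at 2.49, 1.12, 4.94 and 1.72 CPM at day 7, 2.84, 1.28, 2.23 and 1.99 CPM at day 14 and 4.76, 0.912 and 2.18 CPM at day 21. All 11 later libraries lay above all 4 day 0 libraries, although day 21 replicate 2 did so by only 0.912 against 0.893 CPM. Groups lay apart in this direction in 17.6%, 16.8% and 19.4% of all genes at days 7, 14 and 21. The log2 fold change was 2.01 at day 7 (SE 0.55, edgeR adjusted p 0.0159), 1.71 at day 14 (SE 0.55, adjusted p 0.0268) and 2.03 at day 21 (SE 0.58, adjusted p 0.0156).

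Each Pdcd1 call was lost without some single library. The day 7 call was lost without day 7 replicate 3 (log2 fold change 1.48, edgeR adjusted p 0.0610), with the mitochondrial share in the model (2.18, 0.0622) and within the libraries under 2.5% (2.34, 0.0506). The day 14 call was lost without day 0 replicate 1 (1.43, 0.0788), replicate 2 (1.76, 0.0514) or replicate 3 (1.69, 0.0558) and without day 14 replicate 1 (1.5, 0.0726), and within the libraries over 3.5% it was 1.24 (0.0859), and limma voom gave 0.0512. The day 21 call was lost without day 21 replicate 1 (1.24, adjusted p 0.145) and in limma voom (0.0575). With this share in the model the day 14 and day 21 values were 1.71 (0.0301) and 2.00 (0.0198). The direction was the same in all of these fits.

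To compare the regulatory and checkpoint genes with the T cell signal of the same library, each was divided by Cd3e, and Cd8a by Cd4. Ratios given per library are of plain CPM. The log2 differences, the fold and the p-values were taken with 0.1 CPM added to both genes. The ratios are not per length, so only their change between days is read. Foxp3 over Cd3e was 0.116, 0.313, 0.0532 and 0.0735 at day 0, 0.390, 0.298, 0.393 and 0.10 at day 7, 1.37, 0.629, 0.757 and 0.500 at day 14 and 0.438, 0.242 and 0.783 at day 21. All day 14 libraries lay above all day 0 libraries, a 5.86-fold difference of the means (2.55 on the log2 scale, exact two-sided permutation p = 0.0286). At days 7 and 21 the groups overlapped, with log2 differences of 1.10 (exact p = 0.143) and 1.83 (exact p = 0.114).

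Ctla4 over Cd3e overlapped day 0 at day 7, with a log2 difference of 0.56 (exact permutation p = 0.143). It was higher at day 14 by 1.80 on the log2 scale in 4 of 4 libraries (exact p = 0.0286) and at day 21 by 1.68 in 3 of 3 (exact p = 0.0571). Pdcd1 over Cd3e, at 0.0465 to 0.235 at day 0, was 0.351 to 0.60 at day 7, 0.557 to 1.60 at day 14 and 0.485 to 1.60 at day 21, apart from day 0 at each day (log2 differences of 1.63, 2.5 and 2.51, exact p = 0.0286, 0.0286 and 0.0571). Icos over Cd3e was apart from day 0 at day 14 alone, with a log2 difference of 0.85 (exact p = 0.0286). At that day the log2 fold change of Icos itself was -0.01 and that of Cd3e, the lower part of all these ratios, -0.86.

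Cd8a over Cd4 was 0.804, 0.566, 1.03 and 0.781 at day 0, 0.417, 0.487, 0.413 and 0.530 at day 7, 0.302, 0.267, 0.432 and 0.414 at day 14 and 0.506, 0.765 and 0.549 at day 21. Every day 7 and day 14 library lay below every day 0 library, by 0.75 and 1.12 on the log2 scale as means (exact permutation p = 0.0286 each), while the day 21 libraries overlapped day 0 (log2 difference -0.37, exact p = 0.114). Cd3e over Ptprc, the gene of the leukocyte surface protein CD45, overlapped day 0 at every day, with log2 differences of 0.51, -0.46 and -0.23. The smallest p these designs allow is 0.0286 for 4 against 4 libraries and 0.0571 for 4 against 3. After adjustment over the 18 ratio tests the lowest p was 0.0735, so 0 of 18 passed 0.05, with 7 of 18 under 0.05 unadjusted.

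**Figure D4:**
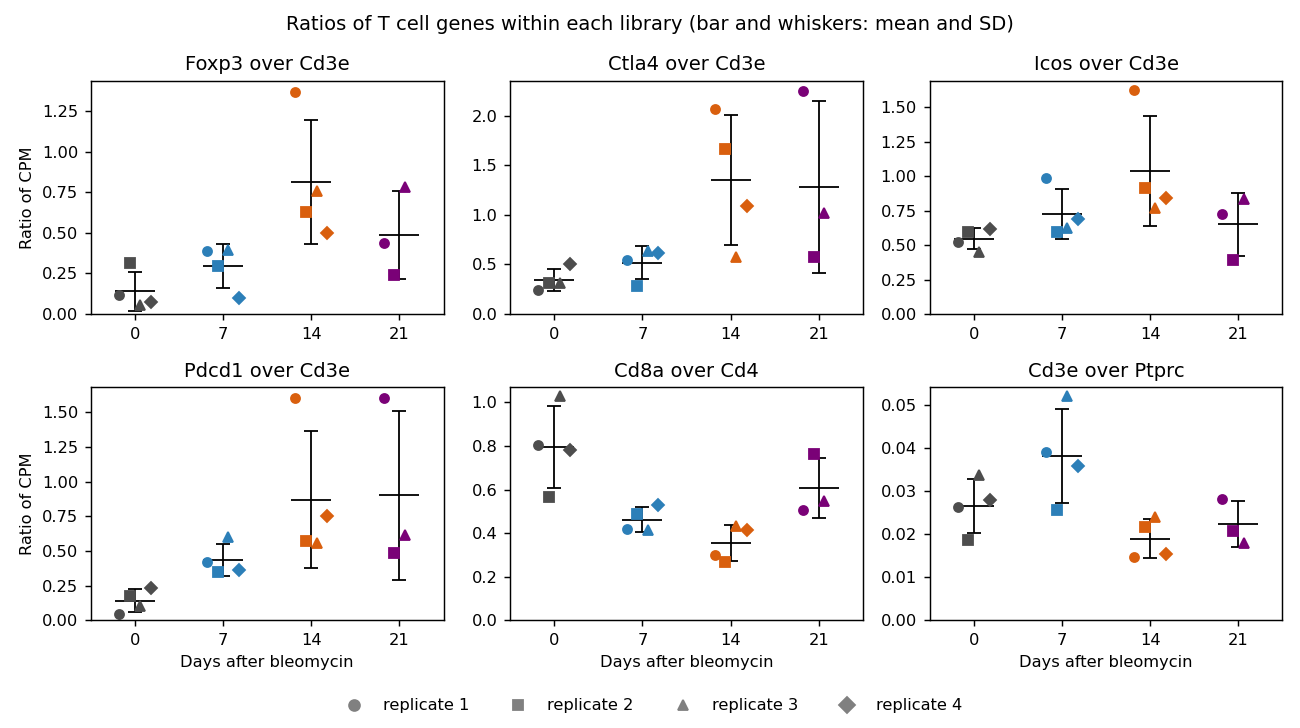
Ratio of CPM of 6 gene pairs (panels) in every library against days after bleomycin; point shapes give the replicate number, and the bar and whiskers the mean and SD of the day. At day 14 the ratios of Foxp3, Ctla4, Icos and Pdcd1 to Cd3e lie above those of day 0 in 4 of 4 libraries, and Cd8a over Cd4 lies below.

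The later days were then compared with each other. Of the 10 members, 0 changed from day 7 to day 14 in edgeR, where 6% of all genes did, with 5 at an unadjusted p under 0.05. The log2 fold changes of the 10 members ran from -1.43 (Cd8b1) to 0.23 (Foxp3) with a median of -0.69, against 0.004 for all genes. The lowest adjusted p was 0.0585, for Cd3e at -1.05 (SE 0.32). DESeq2 called 3 of them, all lower (Cd3e, Cd8a and Cd8b1), and 9.38% of all genes, and limma voom 0. From day 7 to day 21, 0 of 10 changed against 9.54% of all genes, with 3 at an unadjusted p under 0.05, and 2 under DESeq2 (Cd3e and Cd4, lower; 12.8% of all genes) and 0 under limma voom. The range was -1.12 (Cd8b1) to 0.29 (Ctla4) with a median of -0.80. Without day 21 replicate 3, 4 were lower (Cd3g, Cd4, Cd8b1 and Icos), where 10.2% of all genes changed. Between day 14 and day 21 the range was -0.44 (Foxp3) to 0.44 (Cd8a), and 0 of 10 changed in edgeR, DESeq2 or limma voom, with 0 at an unadjusted p under 0.05, where 0% of all genes changed in edgeR.

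The genes with the pattern most like Cd3e and Foxp3 over the 15 libraries were searched among 15322 genes by Pearson r of log2 CPM. For Cd3e they were Lck, the kinase that phosphorylates the CD3 chains (r 0.955, Spearman rho 0.929, r within days 0.906), Ms4a4b (0.932, rho 0.936, within days 0.931), AW112010 (0.929, rho 0.921, within days 0.861), Spib, a transcription factor of B cells and plasmacytoid dendritic cells (0.920, rho 0.918, within days 0.881), and Tbx21, the factor of type 1 helper and NK cells (0.916, rho 0.896, within days 0.814). For Foxp3 they were Wdr76 (0.880, rho 0.843, within days 0.832), Nup37 (0.871, rho 0.857, within days 0.810), E130311K13Rik (0.870, rho 0.825, within days 0.819), Mycn (0.870, rho 0.868, within days 0.835) and Rpl7a-ps3 (0.856, rho 0.882, within days 0.811). None of these is a regulatory T cell gene of the list used here. The values are descriptions over libraries that share day and scaling, and Foxp3 rests on few counts.

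The antigen receptor chains and signalling genes beyond CD3 were read next, from a list of 26 genes that were all tested. At day 14, 9 were lower and 0 higher, against 11.2% and 12% of all genes, with a median log2 fold change of -0.61 over the list. They included Themis (-1.39), Trat1 (-1.36) and the adhesion receptor gene Cd2 (-1.26). Cd2 kept its call in all 20 alternatives, while Trat1 lost its call in 10 of 19 and Themis in 8 of 20. Cd2 was at 19.4 to 23.0 CPM at day 0 and at 5.38 to 10.8 CPM at day 14, with no overlap, as in 14.4% of all genes in this direction. At day 21, when 22.5% of all genes changed, 5 were lower, among them Cd2 (-1.96), Trbc2 (-1.21), Prkcq (-0.92) and Zap70 (-0.65), and Nfatc2 was higher (1.10), with a median of -0.68. At day 7, when 16.1% of all genes changed, 2 were higher and 0 lower, with a median of 0.07. These were Sit1 (1.83), whose call was lost in 10 of 18 alternatives, and Nfatc2 (0.84), lost in 6 of 20.

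Among 8 genes of naive and recirculating T cells, 2 were lower at day 7, 3 at day 14 and 4 at day 21, where 16.1%, 23.1% and 22.5% of all genes changed in either direction. Klf2, a transcription factor that keeps lymphocytes recirculating and that endothelial cells also make, was lower at day 7 (-1.34), and it lost that call in 5 of 20 alternatives. With the mitochondrial share in the model the value was -0.42 (edgeR adjusted p 0.414). At day 14, Lef1 (-1.27) and S1pr1 (-0.74) were lower and none of the 8 was higher. At day 21, Klf2 (-1.15), Lef1 (-1.03) and Tcf7 (-0.65) were lower and Il7r, the interleukin 7 receptor, was higher (0.85), with the Il7r call lost in 10 of 18 alternatives and that of Klf2 in 9 of 18. The median log2 fold change of the 8 genes was -0.32 at day 7, -0.675 at day 14 and -0.62 at day 21.

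Of 14 genes linked to regulatory T cells, 12 were tested. At day 14, 4 were higher and 1 lower, against 12% and 11.2% of all genes, with a list median of 0.24, while the list medians at days 7 and 21 were 0.525 and 0.49. Tnfrsf9, which encodes the costimulatory receptor 4-1BB, rose most, from 0.698 to 1.75 CPM at day 0 to 7.5 to 14.7 CPM at day 14 (log2 fold change 3.09, SE 0.38, edgeR adjusted p 3.34e-05), and was also higher at day 7 (2.5) and day 21 (3.27). Tnfrsf4, the OX40 gene, rose by 1.17, 1.82 and 2.08 at days 7, 14 and 21 on the log2 scale, with the day 7 call lost in 8 of 20 alternatives. Both receptors are made by activated T cells in general. Nt5e, which encodes the ectoenzyme CD73, rose at days 14 and 21 (1.60 and 1.99). CD73 is also made by many non-lymphoid cells. Ikzf4 was higher at day 14 (0.65), a call lost in 9 of 20 alternatives. Il2rb, a chain of the interleukin 2 receptor that NK cells also carry, was lower at day 14 (-1.22) and day 21 (-1.0). At day 7, 4 were higher, against 8.78% of all genes, and 0 lower, the others being Il2ra, the high-affinity interleukin 2 receptor (1.55), and Itgae, an integrin of tissue-resident T cells and dendritic cells (1.33), and both calls were lost with the mitochondrial share in the model (edgeR adjusted p 0.0933 and 0.0913). Il10 had at most 18 counts in a library and was not tested.

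Among 8 other inhibitory receptor genes, Cd200r1 rose at days 7, 14 and 21 by 1.42, 2.45 and 2.35 on the log2 scale and Havcr2, the TIM-3 gene, by 0.68, 1.13 and 1.29. Myeloid cells make both. Tigit was higher at day 7 (1.63), a call lost in 11 of 20 alternatives, as was that of Havcr2 at day 7. At day 14, Cd96 (-1.58), also an NK cell receptor gene, and Btla (-0.94), also a B cell one, were lower. At day 21 none of the 8 was lower in edgeR, where Btla had -0.72 (adjusted p 0.0553). DESeq2 and limma voom each called 3 of the 8 at day 21 against 2 in edgeR. The shares of all genes called were 24.2%, 22.4% and 22.5%. The list medians were 0.29, 0.36 and 0.13 at days 7, 14 and 21. Lag3 and Cd160 passed the thresholds at no day in edgeR, where Lag3 had 0.74 at day 14 (adjusted p 0.0607). At day 14 edgeR called 4 of the 8 and 23.1% of all genes. DESeq2 and limma voom each called 5 of the 8 at that day, with Lag3 added, and 24.3% and 22.8% of all genes.

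Of the 5 ligand genes of CD28, CTLA-4, ICOS and PD-1, Cd80 and Cd86 rose at all 3 days, and both kept their calls under every alternative at days 7 and 14. Cd80 was at 1.75 to 2.12 CPM at day 0, 5.66 to 7.31 CPM at day 7, 3.89 to 7.27 CPM at day 14 and 4.10 to 8.47 CPM at day 21, with log2 fold changes of 1.75, 1.58 and 1.80. Every later library was above every day 0 library, and groups lay apart in this direction in 17.6%, 16.8% and 19.4% of all genes at days 7, 14 and 21. Of all genes, 8.78%, 12% and 12.4% were called higher at these days. For Cd86 the log2 fold changes were 1.20, 1.40 and 1.35. Icosl, the ICOS ligand gene, was lower at day 14 (-0.82) and day 21 (-0.78). The PD-1 ligand genes Cd274 and Pdcd1lg2 passed the thresholds at no day in edgeR.

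Of 16 T cell homing receptor and chemokine genes, 14 were tested and 7 were higher at each of days 7, 14 and 21, against 8.78%, 12% and 12.4% of all genes, with list medians of 1.59, 0.93 and 0.93. The 7 were not the same genes throughout, since Ccl22 was called at day 7 only and Ccl21a at days 14 and 21. The day 14 call of Ccl21a was lost in 13 of 20 alternatives. Values below 0 were found for 2, 5 and 4 of the 14. Cxcr3, a receptor of activated T cells, was among them at days 14 and 21 (-0.86 and -0.42, neither past the thresholds). At day 7 the higher genes included Cxcl9 (3.51), Ccl20 (3.12) and Cxcl10 (3.01). The values of Ccl20, Cxcl9 and Cxcl10 were 2.32, 2.27 and 2.09 at day 14 and 3.41, 2.42 and 2.00 at day 21. CXCL9 and CXCL10 attract T cells through CXCR3. Cxcr5, a receptor of B cells and follicular helper T cells, was lower at day 14 (-1.71) and day 21 (-2.04).

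**Figure D5:**
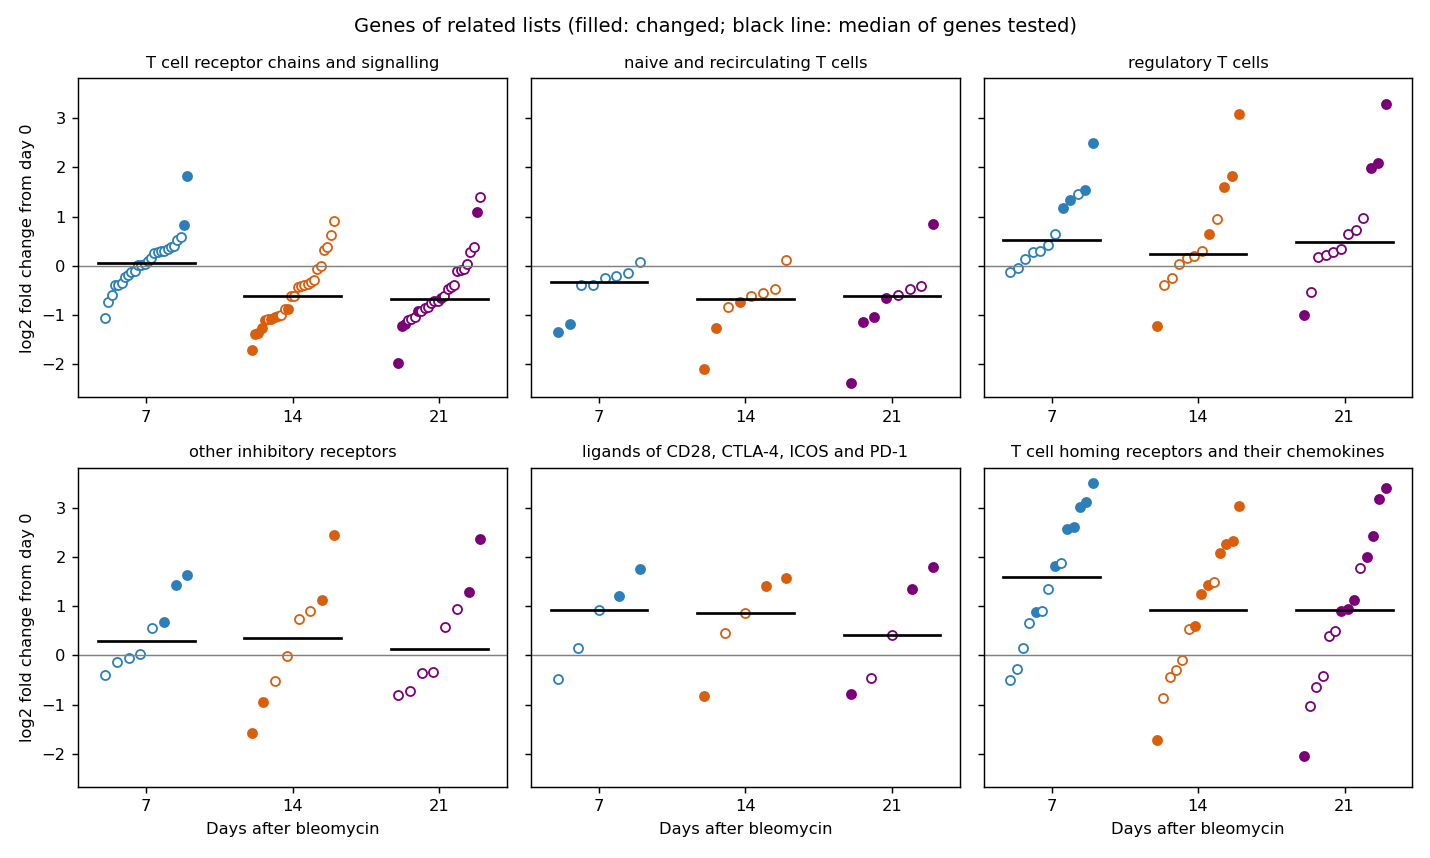
log2 fold change from day 0 at days 7, 14 and 21 for the genes of 6 lists (panels); filled points passed both thresholds and the black line is the median of the genes tested. At day 14 the receptor signalling list has a median of -0.61 and the homing list one of 0.93.

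Markers of other cells that whole lung holds moved over the same days, and their part in the results above was not tested. All 5 B cell markers and all 7 NK cell markers were lower at days 14 and 21 in edgeR. Of all genes, 16.1%, 23.1% and 22.5% changed at days 7, 14 and 21, with 8.78%, 12% and 12.4% higher. At day 7, 0 of 5 and 0 of 7 were called. An unadjusted p under 0.05 was found for 1 and 4, and for 6667 of the 17457 genes. DESeq2 and limma voom each called 0 and 2, and 18.3% and 15.5% of all genes. The summed level of the B cell markers was 86.6 to 148.3 CPM at day 0, 32.0 to 123.1 at day 7, 16.5 to 68.4 at day 14 and 23.7 to 30.8 at day 21, and that of the NK cell markers 34.9 to 84.5, 15.2 to 36.7, 5.55 to 24.6 and 6.10 to 13.9 CPM. Day 7 replicate 3, highest for 9 of 10 members, was also the highest day 7 library in both sums, and day 21 replicate 2, lowest for all 10, was the lowest day 21 library in both. Of 6 monocyte and macrophage markers, 2, 3 and 2 were higher at days 7, 14 and 21 (Cd68 and Adgre1 at all 3 days, Csf1r at day 14) and none was lower. The day 7 call of Adgre1 was lost with the mitochondrial share in the model (edgeR adjusted p 0.0939). Of 6 conventional dendritic cell markers, Itgax was higher and Clec9a lower at all 3 days and Flt3 was higher at day 7. The day 7 calls of Itgax, Clec9a and Flt3 were lost with the mitochondrial share in the model (edgeR adjusted p 0.169, 0.143 and 0.213). Over all alternatives at day 7, Itgax lost its call in 8 of 20 and Flt3 in 9 of 20. Of 5 plasmacytoid dendritic cell markers, 4 had values below 0 at day 14, where the list median was -1.27. An unadjusted p under 0.05 was found for 4 of the 5, with the higher Runx2 among them, and for 7556 of the 17457 genes. In edgeR Runx2 was the 1 called at day 14 (higher, as at day 21) and Siglech was lower at day 21. DESeq2 and limma voom each called 3 of these markers at day 14, and 24.3% and 22.8% of all genes. Of 4 genes of all leukocytes, Cd52 was higher at day 14.

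RNA of the thymus, an organ near the lung that is full of T cell precursors, was looked for by its defining genes. Rag2 had 1 count in all 15 libraries together, Ptcra at most 3, Dntt at most 7, Arpp21 at most 6 and Rag1 at most 17 counts in a library, and all 5 thymocyte genes failed the filter. The thymic epithelial genes Psmb11 and Foxn1 had at most 1 and 6 counts in a library.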

How the data were processed

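Polyadenylated RNA of whole lung was measured in 15 libraries. Per the labels and the study's methods, the authors aligned reads to mm10 with HISAT2 2.1.0 and deposited raw counts per Ensembl gene from HTSeq 0.6.0, with no normalization. The annotation release and strand setting are not given in the sources used here. Identifiers were matched to GENCODE M21 (33267 of 33340).

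Counts were tested with edgeR 4.0.16 in R 4.3.3 (filterByExpr on day, TMM, glmQLFit and glmQLFTest, all 15 libraries in 1 fit, day as the only term), which left 17457 genes. The script was tested on simulated data. Replicates of a day differed by more than sampling noise, so none was a duplicate. Ratios were compared by exact two-sided permutation tests. The thresholds are those of the study. Alternatives were DESeq2 1.42.0, limma voom (limma 3.58.1), other scalings and filters, a replicate block, the mitochondrial share, and leaving out each library.

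The 10 genes and all lists were chosen with earlier results of these data known. Beside the 10 genes, up to 4 changed genes with the largest log2 fold change per list and comparison are named. Others were named after their values were seen, where a count was 5 or fewer or a list was described by its members. No list was tested as a set. Some genes that the rule names are not reported here.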

Additional observations from a re-analysis of the deposited data

Results flagged for a closer look

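In 48 groups of 4 libraries, over the 10 genes and 6 ratios, 3 held a library far from the others by Dixon's criterion, where chance gives about 5% of groups. The Cd3d level of day 0 replicate 3 was 7.11 CPM, while the rest of day 0 ran from 3.75 to 4.08 CPM. That of day 14 replicate 3 was 4.12 CPM, while the rest of day 14 ran from 2.30 to 2.55 CPM. The ratio of Icos to Cd3e was 1.63 in day 14 replicate 1 and 0.771 to 0.914 in the rest of that day.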

How the results depend on the processing

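The number of members changed (1, 3 and 1 against day 0 at days 7, 14 and 21) depended on the fit. With glmTreat, where 1.5-fold is the null hypothesis, it was 0, 0 and 0 (4.03%, 10.1% and 10% of all genes). At day 7 it was 0 with the mitochondrial share in the model (7.27% of all genes) and 0 within the libraries under 2.5% (11.9%). At day 14 (23.1% of all genes) it was 5 with DESeq2 (24.3%), 5 with no filter (12.5%), 6 with the 2 groups alone (22.3%), 5 with that share in the model (24%) and 1 within the libraries over 3.5% (16.1%). At day 21 limma voom gave 0 (22.4%). From day 7 to day 14 (0 changed), DESeq2 gave 3 (9.38%) and no filter gave 1 (Cd3e, 3.9%), and from day 7 to day 21 (0 changed) DESeq2 gave 2 (12.8%). Leaving out 1 library gave 0 to 1 at day 7 (0 without day 7 replicate 3), 0 to 4 at day 14 (0 without day 0 replicate 3, 1 without day 0 replicate 1 or day 14 replicate 1, 4 without day 0 replicate 4 or day 14 replicate 3), 0 to 3 at day 21 (0 without day 21 replicate 1, 2 without replicate 2, 3 without replicate 3), 0 to 1 from day 7 to day 14 and 0 to 4 from day 7 to day 21 (4 without day 21 replicate 3, 2 without day 7 replicate 2). The causes were not tested. In 0 of 18 ratio tests did an alternative bring the adjusted p under 0.05. The smallest p possible, 0.0286 for 4 against 4 libraries and 0.0571 for 4 against 3, left little room for another outcome. This count therefore does not show how stable the ratios are.

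With a replicate block the counts were 1, 6 and 4 against day 0 (16.7%, 23.6% and 21.5% of all genes), 3 from day 7 to day 14 (6.78%) and 3 from day 7 to day 21 (9.46%). The calls gained were Cd3d, Cd3e and Foxp3 at day 14, Cd3d, Cd3e and Cd8b1 at day 21, Cd3e, Cd8a and Cd8b1 from day 7 to day 14, and Cd3e, Cd4 and Icos from day 7 to day 21. Same-numbered libraries did not deviate together throughout: the correlation of their deviations ran from -0.24 to 0.40 and was over 0.1 in 8 of 21 pairs. A library correlated best with its own number in 17 of 42 comparisons with another day, and 1 of 15 did so in every other day. These counts are given without a chance rate and do not show that same-numbered libraries were unrelated. The labels give no shared origin for a number, so it was not taken to pair the libraries, although replicate 3 had the highest sum of the 10 genes at all 4 days.

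Directions turned only for values near 0. The Cd3d value at day 7 was 0.18 with the mitochondrial share in the model, and 0.18 in the libraries under 2.5%, and the Icos value at day 14 was 0.009 with that share in the model. Leaving out 1 library gave -0.47 to 0.16 for Cd3d, -0.065 to 0.38 for Cd3e, -0.33 to 0.007 for Cd8a and -0.33 to 0.14 for Cd8b1 at day 7, and -0.22 to 0.055 for Cd4 and -0.11 to 0.064 for Icos at day 14. Counts of 4 to 21 per library for Foxp3 and Pdcd1 at day 0 limit the precision of their fold changes.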

Other observations

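The helper T cell list, of which 5 of 11 genes were tested, moved downward where it moved. Tbx21, which encodes T-bet, the factor of type 1 helper cells and NK cells, was lower at day 14 (log2 fold change -1.75) and day 21 (-1.88), Bcl6 was lower at both days (-0.69 and -0.76), and Gata3, the factor of type 2 helper cells, was lower at day 21 (-1.33). At day 7, 0 of 5 changed in edgeR, DESeq2 or limma voom, with 2 at an unadjusted p under 0.05. Il4 was the cytokine gene that passed the filter, at 27 to 51 counts per library, with log2 fold changes of -0.095, -0.073 and -0.28 at days 7, 14 and 21 that did not pass the thresholds. The other 6 cytokine genes had at most 4 counts in a library for Ifng, 2 for Il17a, 5 for Il5, 3 for Il13, 7 for Il21 and 4 for Il2.

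Of 7 gamma delta T cell genes, 6 were tested. Blk (-1.34), also a B cell gene, Tcrg-C2 (-1.31) and Cd163l1 (-0.98) were lower at day 14, Blk at day 21 (-1.59) and Sox13 at day 7 (-0.62). The day 14 calls were lost in 7 of 20, 9 of 18 and 10 of 20 alternatives, that of Blk at day 21 in 5 of 18 and that of Sox13 in 7 of 20. Reads of the receptor constant genes can be split between near-identical copies. Among 6 genes linked to type 2 innate lymphoid cells, Arg1 was higher at days 7, 14 and 21, and Rora was lower at day 14 (-0.90). The list medians were 0.69, 0.31 and 0.55, where 16.1%, 23.1% and 22.5% of all genes changed. The tested thymic epithelial genes, Prss16 and Ccl25, did not pass the thresholds at any day in edgeR, DESeq2 or limma voom, with 0 at an unadjusted p under 0.05.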
